A study of Mus musculus with 8 samples.

Results

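None of the glutamate receptor and vesicular transporter genes that could be measured passed the test between brainstems of late-stage mice lacking Ndufs4 in Vglut2-expressing neurons and brainstems of their control littermates. The gene list was set by name and covers the 3 vesicular glutamate transporters and subunits of the AMPA, delta, kainate and NMDA receptors, along with metabotropic receptors, auxiliary subunits and postsynaptic scaffolds. Of its 35 genes, 27 had a probe on the Illumina MouseRef-8 v2 beadchip, and 19 of these had a probe detected often enough to be tested, among 10427 genes tested in all. The Vglut2:Ndufs4cKO group (n = 4 mice) carried 1 deleted and 1 floxed Ndufs4 allele, and the Vglut2:Ndufs4cCT group (n = 4) carried 1 floxed and 1 wild-type allele. Both groups carried the Slc17a6-Cre BAC transgene, in which iCre is driven by the promoter of Slc17a6, the gene for VGLUT2, and both were on the C57/BL6J background. Every cell of a Vglut2:Ndufs4cKO mouse carried the deleted allele, whereas Cre acted only where the Slc17a6 promoter is or was active. Each array held total RNA of 1 whole brainstem, so neurons with and without recombination were measured together with glia.

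Glutamate is the main excitatory transmitter of the brain. Vesicular transporters load it into synaptic vesicles, and which transporter a neuron uses marks its class: VGLUT2 is the principal one in brainstem neurons, VGLUT1 predominates in cortex and cerebellar granule cells, and VGLUT3 is found in scattered neurons that often release another transmitter as well. Released glutamate opens AMPA, kainate and NMDA receptor channels and activates G protein-coupled metabotropic receptors, while auxiliary subunits and scaffold proteins set how many receptors sit at the synapse.

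Because the Slc17a6 promoter defines both the transporter measured here and the cells in which Cre acts, its start-site region is shown from RefSeq at chr7:51621580-51621879 (GRCm38.p6, plus strand). The lower-case letters are the 250 bases before the annotated start, and the capitals mark the 50 bases from the start at position 51621830. The window had a GC content of 53.7% and held 8 CpG dinucleotides, a count reached by 48.6% of the 32851 mouse promoter windows of this length. Another annotated Slc17a6 start, at position 51624637, has a window with a GC content of 43.0% and 3 CpG dinucleotides, and is not shown.
Slc17a6: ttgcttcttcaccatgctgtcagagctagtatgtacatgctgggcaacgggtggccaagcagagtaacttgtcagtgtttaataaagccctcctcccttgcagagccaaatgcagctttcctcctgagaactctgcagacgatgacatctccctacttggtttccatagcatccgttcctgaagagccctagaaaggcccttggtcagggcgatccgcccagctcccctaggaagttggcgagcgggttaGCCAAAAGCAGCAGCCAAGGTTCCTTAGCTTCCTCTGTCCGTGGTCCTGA

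The arrays were similar in depth, with a mean signal of 1392 to 1707 and 14293 to 15042 detected probes each. Of 4 probes of the targeted gene Ndufs4, ILMN_1234521 separated the groups, with a log2 fold change of -1.41 (limma, adjusted p = 0.0228), while the other 3 lay between -0.20 and -0.14 with overlapping groups (adjusted p of 0.746 to 0.869). All 8 arrays lay on 1 beadchip, with the controls at the first positions and the Vglut2:Ndufs4cKO samples at the last, so position and genotype cannot be told apart. Of 14 brainstem markers, 12 were tested, and their summed signal ranged from 19862 to 24864 in controls and from 18866 to 20608 in Vglut2:Ndufs4cKO arrays. Vglut2:Ndufs4cKO replicate 4 stood apart from the rest. Its summed signal of 6 tested cerebellar granule cell markers (of 9 listed) was 37803, against 19776 to 21632 in the other Vglut2:Ndufs4cKO arrays and 25985 to 30040 in controls. Its sum of 2 tested Purkinje cell markers (of 6) was 1376, against 251 to 398 and 223 to 584, and its log2 signal of the forebrain marker Ppp1r1b was 12.15, against 11.30 to 11.47 and 11.14 to 11.37. The other tested forebrain marker (of 9 listed), Nrgn, was not raised in it, at 7.40 against 7.23 to 7.77 and 7.28 to 8.38. Of the 2 Purkinje cell markers, Pcp2 was at 10.17 in it, against 6.63 to 7.55 in the other Vglut2:Ndufs4cKO arrays and 5.94 to 8.70 in controls. Slc1a6 was only slightly above the rest, at 8.01 against 7.52 to 7.94 and 7.12 to 7.90. Several defining markers of these regions were not detected on enough arrays, among them Gabra6, Fat2, Cbln3, Calb1, Pcp4 and Neurod6. Results in which this array decides a value are also given without it.

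Of the 19 tested genes, 0 were higher and 0 were lower at an adjusted p under 0.05 in limma, where 0.777% of all tested genes were called higher and 0.0288% lower. Before adjustment, p was under 0.05 for 0 genes in either direction, against 7.19% of all genes higher and 3.02% lower. In 0 of the 19 did the values of the 4 Vglut2:Ndufs4cKO arrays lie wholly above or below those of the 4 controls, against 4.29% and 2.03% of all genes. The smallest unadjusted p was 0.112 (adjusted p = 0.616), for the scaffold gene Dlg4. The median log2 fold change was -0.08 over the 19 genes and 0.02 over all genes tested, and 12 of the 19 were negative (63.2%, against 46.6% of all genes). For 18 of the 19 the fold change lay within 0.3 of 0 on the log2 scale. In whole tissue, fewer cells of a type and less RNA per cell cannot be told apart.

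**Figure D1:**
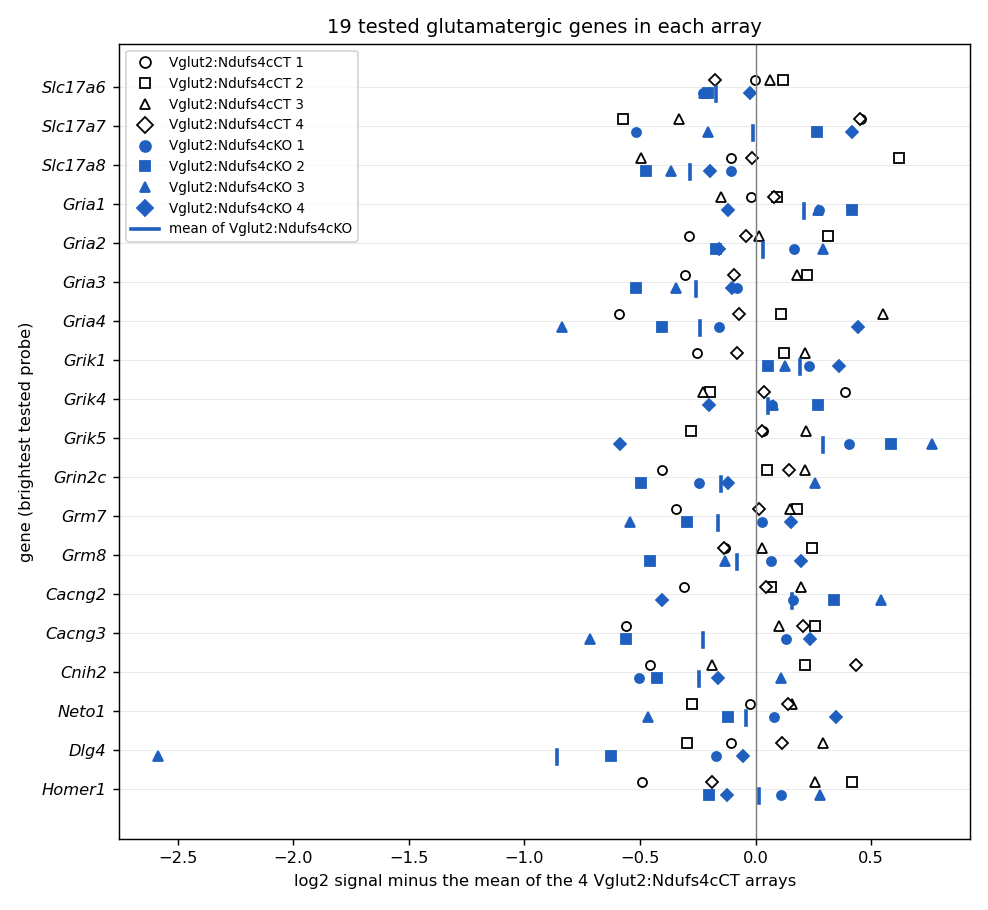
Log2 signal of the 19 tested genes in each array, minus the mean of the 4 Vglut2:Ndufs4cCT arrays, with 1 row per gene (brightest tested probe), open symbols for controls, filled symbols for Vglut2:Ndufs4cKO arrays and a bar at the mean of the latter. Open and filled symbols overlap in every row, and the farthest point is Dlg4 in Vglut2:Ndufs4cKO replicate 3.

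The size of change that these arrays could show differed from gene to gene. At its own standard error, a gene of the list needed a median difference of 2.09-fold to be called, from 1.56-fold for Slc17a6 to 6.42-fold for Dlg4, and the median over all genes was 1.86-fold. The 95% interval of the difference stayed within 2-fold in either direction for 18 of the 19 genes, with Dlg4 as the exception. An observed difference below these sizes could not be called with 4 arrays a group. The median SD among arrays was 0.25 (controls) and 0.28 (Vglut2:Ndufs4cKO) on the log2 scale for the list, against 0.21 and 0.22 for all genes.

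**Figure D2:**
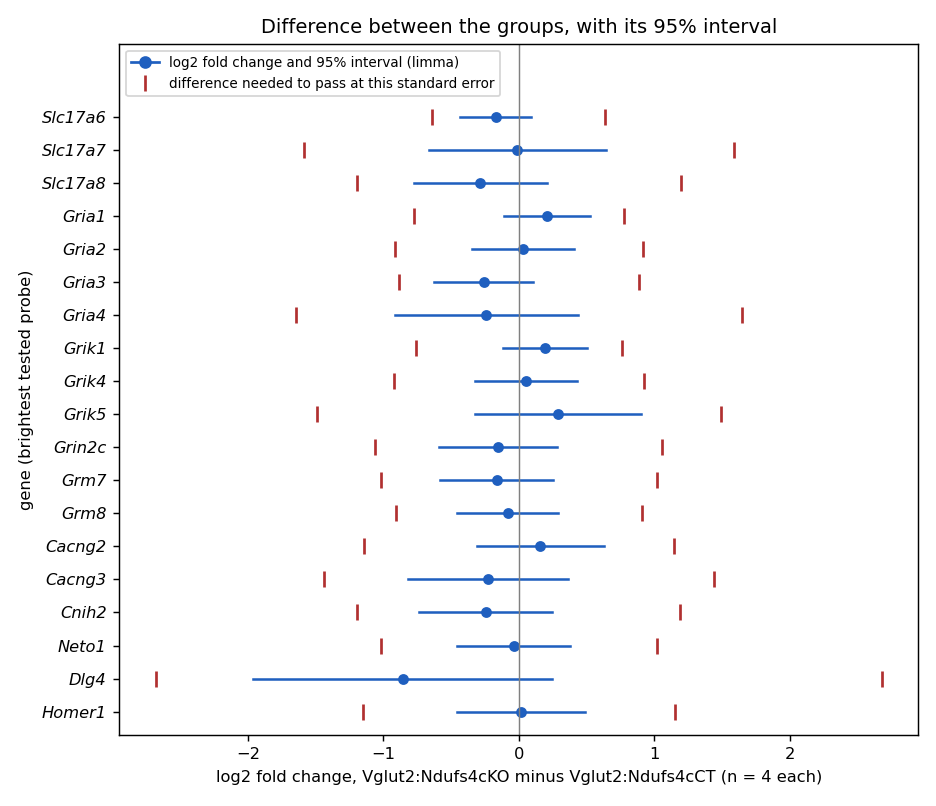
Log2 fold change of each tested gene, Vglut2:Ndufs4cKO minus Vglut2:Ndufs4cCT (n = 4 arrays each), with its 95% interval from limma, and red ticks at the difference that would have been called at that gene's standard error. Every interval crosses 0 and no point reaches its red tick, with the narrowest interval for Slc17a6 and the widest for Dlg4.

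Among the vesicular transporters, Slc17a6 gave the tightest measurement. Its log2 signals were 14.93, 15.05, 15.00 and 14.76 in the controls and 14.71, 14.73, 14.71 and 14.91 in the Vglut2:Ndufs4cKO arrays, in the order of their replicate numbers. Vglut2:Ndufs4cKO replicates 1 to 3 lay below every control, and the groups overlapped only because replicate 4 lay above control replicate 4. The log2 fold change was -0.17 ± 0.12 (SE), with a 95% interval of -0.43 to 0.09, or 0.741-fold to 1.07-fold (adjusted p = 0.669 in limma). A two-sided exact permutation test of this gene gave p = 0.0571, the lowest of the 19 genes, where 0.0286 is the smallest value that 4 against 4 arrays can give. Without Vglut2:Ndufs4cKO replicate 4 the log2 fold change was -0.22 (limma, adjusted p = 0.332) and the groups did not overlap, as was the case for 19.6% of all probes in that setting. They did not overlap without control replicate 4 either, as was the case for 7.05% of all probes. In Vglut2:Ndufs4cKO replicate 4 the cerebellar marker sums were the highest of all arrays, and their part in its Slc17a6 level was not tested.

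Slc17a7, which encodes VGLUT1, had log2 signals of 10.49, 9.46, 9.71 and 10.49 in controls and 9.52, 10.30, 9.83 and 10.46 in Vglut2:Ndufs4cKO arrays. Each group thus spanned about the same range, with low and high arrays in both. The log2 fold change was -0.01 (95% interval -0.66 to 0.64, limma adjusted p = 0.995), and the SD was 0.53 in controls and 0.43 in Vglut2:Ndufs4cKO arrays. Slc17a8, which encodes VGLUT3, had log2 signals of 8.40, 9.13, 8.01 and 8.49 in controls and 8.40, 8.03, 8.14 and 8.31 in Vglut2:Ndufs4cKO arrays. Control replicate 2 was the highest of the 8 and control replicate 3 the lowest, so that the Vglut2:Ndufs4cKO values lay within the control range. Its log2 fold change was -0.29 (95% interval -0.78 to 0.21, limma adjusted p = 0.709), and it was -0.08 without control replicate 2 and -0.45 without control replicate 3.

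All 4 AMPA receptor subunit genes, which encode the channels that carry most fast excitation, were tested. Gria1 (GluA1) had log2 signals of 11.05, 11.16, 10.92 and 11.15 in controls and 11.34, 11.48, 11.34 and 10.95 in Vglut2:Ndufs4cKO arrays. Replicates 1 to 3 of the latter were above every control and replicate 4 was within the control range. Gria1 had the narrowest interval of the 4, with a log2 fold change of 0.21 (95% interval -0.11 to 0.53, limma adjusted p = 0.663). Gria2 encodes GluA2, the subunit that makes the channel impermeable to calcium, and its brightest probe gave log2 signals of 12.42, 13.02, 12.72 and 12.67 in controls and 12.87, 12.53, 13.00 and 12.55 in Vglut2:Ndufs4cKO arrays. The values of the groups were interleaved, and the log2 fold change was 0.03 (95% interval -0.34 to 0.41, limma adjusted p = 0.969). Gria3 (GluA3) differed by -0.26 (-0.62 to 0.10, limma adjusted p = 0.645) and Gria4 (GluA4) by -0.24 (-0.92 to 0.44, limma adjusted p = 0.824). Gria1 and Gria2 were thus above 0 and Gria3 and Gria4 below, with none called and overlapping groups for all 4.

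Of the auxiliary subunits that traffic AMPA receptors and slow their closing, Cacng2 (stargazin) differed by 0.16 (95% interval -0.31 to 0.63, limma adjusted p = 0.834). Cacng3 (TARP gamma-3) differed by -0.23 (-0.82 to 0.36) and Cnih2 (cornichon-2) by -0.25 (-0.74 to 0.24), with adjusted p of 0.808 and 0.744 in limma. Cacng8, another member of the stargazin family, was not detected on any array. The 3 tested genes therefore lay on both sides of 0, each with an interval that crossed it. Of the delta receptor genes, Grid1 had no probe under its symbol and was not analysed here.

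The 3 tested kainate receptor subunit genes were all above 0 and none passed. Grik1 (GluK1) differed by 0.19 (95% interval -0.12 to 0.51, limma adjusted p = 0.687) and Grik4 (GluK4) by 0.05 (-0.33 to 0.43, limma adjusted p = 0.944). Grik5 encodes GluK5, which needs a GluK1 to GluK3 partner to form a channel, and it had the largest positive value of the list. Its log2 signals, given because of that size after the values were seen, were 9.59, 9.27, 9.77 and 9.58 in controls and 9.96, 10.14, 10.32 and 8.97 in Vglut2:Ndufs4cKO arrays. Vglut2:Ndufs4cKO replicates 1 to 3 were above every control, and replicate 4 was the lowest of the 8. The log2 fold change was 0.29 ± 0.27 (SE), with a 95% interval of -0.32 to 0.91 (limma adjusted p = 0.759). Grik2 (GluK2) was detected on 1 array, a control, and Grik3 had no probe under its symbol.

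Neto1, an auxiliary subunit that modulates kainate receptor kinetics, had 3 tested probes. The brightest gave log2 signals of 7.56, 7.31, 7.74 and 7.72 in controls and 7.66, 7.46, 7.12 and 7.93 in Vglut2:Ndufs4cKO arrays, a log2 fold change of -0.04 (limma adjusted p = 0.965). The extremes of all 8 arrays, Vglut2:Ndufs4cKO replicates 3 and 4, lay in the same group. The related gene Neto2 had no probe under its symbol.

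The NMDA receptor, the calcium-permeable coincidence detector of the synapse, was thinly covered. Grin2c (GluN2C) was its 1 tested gene of the 6 on the list. Its log2 signals lay between 7.07 and 7.69 in controls and between 6.98 and 7.73 in Vglut2:Ndufs4cKO arrays. The difference was -0.15 (95% interval -0.59 to 0.29, limma adjusted p = 0.83). The probes of Grin2a, Grin2b and Grin2d were not detected on any array, and Grin1 and Grin3a were not analysed here because no probe carried their symbols. The obligatory subunit GluN1 is thus not among the values, and the arrays do not bear on the NMDA receptor as a whole.

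Of 6 metabotropic receptor genes, 2 were tested, both encoding presynaptic receptors that lower transmitter release. Grm7 (mGlu7) differed by -0.16 (95% interval -0.58 to 0.25) and Grm8 (mGlu8) by -0.08 (-0.45 to 0.29), with adjusted p of 0.805 and 0.905 in limma. Grm3 was not detected on any array, while Grm4, another receptor of the presynaptic kind, was detected on 2 arrays, both Vglut2:Ndufs4cKO, too few to be tested. Grm2 and Grm5 had no probe under their symbols.

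Among the scaffolds, Dlg4 encodes PSD-95, which anchors NMDA receptors and, through stargazin, AMPA receptors. Its values are given because it had the largest difference of the list, a choice made after they were seen. The log2 signals were 9.10, 8.91, 9.50 and 9.32 in controls and 9.04, 8.58, 6.62 and 9.15 in Vglut2:Ndufs4cKO arrays. Vglut2:Ndufs4cKO replicate 3 was far below the other 7 arrays, and replicates 1 and 4 lay within the control range. The mean was 9.21 ± 0.26 (SD, n = 4) in controls and 8.35 ± 1.18 (SD, n = 4) in Vglut2:Ndufs4cKO arrays. The log2 fold change of -0.86 had a 95% interval of -1.96 to 0.24, or 0.257-fold to 1.18-fold (limma adjusted p = 0.616), and it was -0.28 without replicate 3. Homer1, which links metabotropic receptors to intracellular calcium stores, differed by 0.02 (95% interval -0.46 to 0.49, limma adjusted p = 0.990). Shank3 was not detected on any array, and Shank1 had no probe under its symbol.

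Several of the tested genes, namely Gria1, Gria2, Gria3, Cacng3, Neto1 and Homer1, had more than 1 tested probe. For Gria1 all 3 probes were between 0.13 and 0.21, and for Homer1 both were above 0 (0.02 and 0.16). For Cacng3 both were below 0 (-0.23 and -0.16). The second Cacng3 probe, ILMN_1248692, was detected on 3 control arrays and 1 Vglut2:Ndufs4cKO array. Its log2 signal was 7.27 in Vglut2:Ndufs4cKO replicate 4, against 5.11 to 5.86 in the group's other arrays. Without that replicate the Cacng3 probes were at -0.38 and -0.59 (limma adjusted p = 0.460 and 0.250). For Gria2, Gria3 and Neto1 the probes took both signs. The other Gria2 probe, ILMN_3122922, gave log2 signals of 10.29, 11.16, 11.13 and 10.74 in controls and 10.86, 10.54, 10.42 and 11.19 in Vglut2:Ndufs4cKO arrays. On this probe replicate 4 was the highest Vglut2:Ndufs4cKO array and replicate 3 the lowest, whereas on the brightest probe replicate 3 was the highest. The log2 fold change was -0.08 (limma adjusted p = 0.941).

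The 3 Gria3 probes showed the same kind of disagreement. The brightest, ILMN_1223636, gave 8.47, 9.0, 8.96 and 8.68 in controls and 8.70, 8.26, 8.43 and 8.68 in Vglut2:Ndufs4cKO arrays. ILMN_2638066 gave 8.52, 8.81, 9.08 and 8.69 in controls and 8.48, 8.35, 7.43 and 9.29 in Vglut2:Ndufs4cKO arrays, a log2 fold change of -0.39 (limma adjusted p = 0.734) that was -0.69 without replicate 4 of the latter (limma adjusted p = 0.182, groups not overlapping). Here replicate 3 was the lowest and replicate 4 the highest of all 8 arrays, while on the brightest probe the Vglut2:Ndufs4cKO arrays lay close together. ILMN_1238789 gave 6.61, 7.51, 6.56 and 6.85 in controls and 7.25, 6.75, 6.77 and 6.87 in Vglut2:Ndufs4cKO arrays, a log2 fold change of 0.03 (limma adjusted p = 0.982). The Vglut2:Ndufs4cKO values of this last probe lay within the control range.

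For Neto1, ILMN_2687473 gave 7.15, 7.13, 7.23 and 6.95 in controls and 7.10, 6.52, 6.43 and 7.32 in Vglut2:Ndufs4cKO arrays (log2 fold change -0.28, limma adjusted p = 0.698). Without replicate 4 of the latter it was -0.43 (limma adjusted p = 0.218). Its controls lay close together and the Vglut2:Ndufs4cKO arrays split, with replicates 2 and 3 below all controls and replicate 4 above them. ILMN_2620827 gave 6.86, 7.52, 7.57 and 7.14 in controls and 7.47, 6.97, 7.24 and 7.59 in Vglut2:Ndufs4cKO arrays (log2 fold change 0.05, limma adjusted p = 0.962). The groups covered nearly the same range on that probe.

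**Figure D3:**
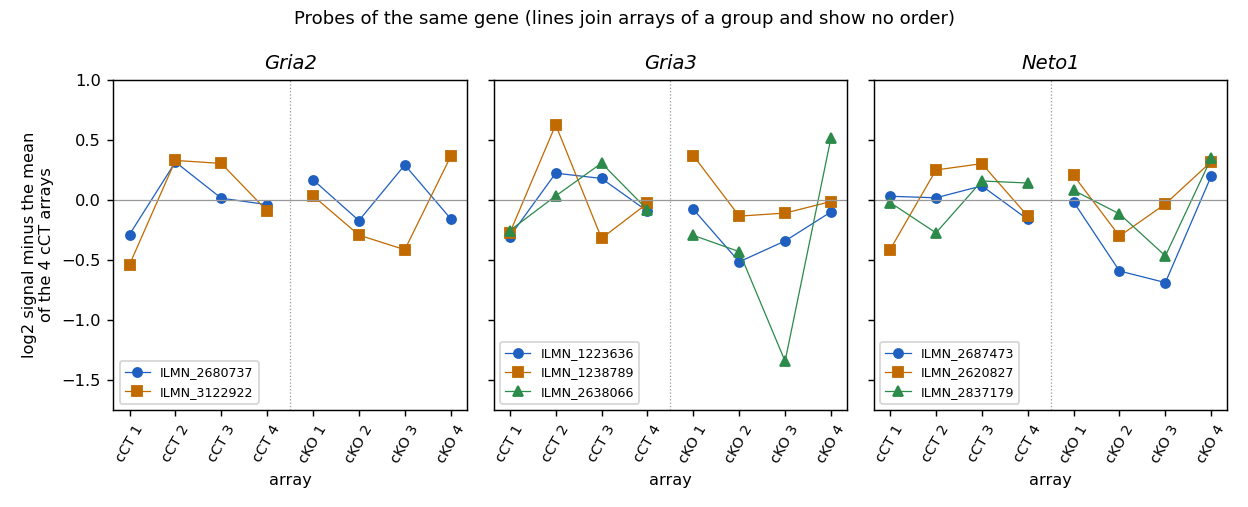
Log2 signal of each tested probe of Gria2, Gria3 and Neto1, minus that probe's mean over the 4 controls (vertical axis), in the 4 control (cCT) and 4 Vglut2:Ndufs4cKO (cKO) arrays along the horizontal axis, with 1 colour per probe and lines that join arrays of a group without order. In each of the genes the probes part most in cKO 3, where ILMN_2638066 of Gria3 reads 7.43.

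Probes of the same gene moved apart from array to array across the whole chip. A per-array index of this, taken as the leading component of how far 2605 bright probes departed from other probes of the same 1165 genes, was defined after the data were seen, without the genes of the list, and held 59% of the variance. It was -0.031, -0.236, -0.322 and -0.085 in controls and 0.025, 0.348, 0.727 and -0.427 in Vglut2:Ndufs4cKO arrays, so the most extreme arrays in either direction were Vglut2:Ndufs4cKO replicates 3 and 4. In limma with the index as a covariate, 2 of the 19 genes, Gria4 and Dlg4, fell with the index (adjusted p = 0.0269 and 0.0384), against 4.28% of all genes with a slope of either sign. At probe level 5 of the 28 tested probes had such a slope, against 7.04% of all probes, the others being ILMN_2638066 of Gria3 (adjusted p = 0.00205), ILMN_2687473 of Neto1 (0.0322) and ILMN_1248692 of Cacng3 (0.0392). With the index in the model the log2 fold change of Dlg4 was -0.19, that of Gria4 0.18 and that of Grik5 -0.06, and 0 genes of the list were called. What the index stands for was not tested.

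Without Vglut2:Ndufs4cKO replicate 4, a setting that raised the calls over all probes to 234 higher and 123 lower (2.38% of 14998), still 0 genes of the list passed. Grik5 came nearest, with a log2 fold change of 0.58 (limma adjusted p = 0.0842), and Gria1 followed with 0.32 (limma adjusted p = 0.175). Both had an unadjusted p under 0.05, as did 20.4% of all probes in that setting, and both had groups that did not overlap, as did 19.6%. Cacng2 differed by 0.35, Gria4 by -0.47 and Dlg4 by -1.13, with adjusted p of 0.262, 0.374 and 0.253 in limma. More probes passed each threshold over the whole chip in that setting than with all arrays.

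No gene on the other lists of the pathway passed the test either. Of 11 other genes for glutamate receptors and their auxiliary or interacting proteins, 6 were tested, with 0 called and a median of -0.11. Most of the 6 were auxiliary subunit genes. The only receptor subunit gene among them was Grin3b, of the NMDA class, with a log2 fold change of 0.00027 (limma adjusted p = 0.9996). Of 13 genes for glutamate uptake and metabolism, which clear and recycle the transmitter in astrocytes and neurons, 11 were tested, with 0 called and a median of -0.03. Of 23 other postsynaptic density genes, 16 were tested, with 0 called and a median of -0.05. In that list Arc, an activity-induced gene whose protein removes AMPA receptors from the synapse, had the smallest p. Its log2 signals were 9.22, 9.54, 9.58 and 9.34 in controls and 8.66, 9.06, 8.39 and 8.84 in Vglut2:Ndufs4cKO arrays. All 4 Vglut2:Ndufs4cKO arrays were below all controls, an arrangement found in 2.03% of all genes, with a log2 fold change of -0.69 ± 0.16 (SE) that did not pass (limma adjusted p = 0.140). Dlg2, a scaffold related to PSD-95, was the other of the 16 with all Vglut2:Ndufs4cKO arrays below all controls, at -0.25 (limma adjusted p = 0.555).

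Genes of inhibitory transmission and of the release machinery were compared in the same way. Of 26 GABA and glycine genes, 15 were tested, with 0 called, a median of -0.24 and 13 below 0. The smallest p in that list was for Slc6a9, a glycine transporter, at a log2 fold change of -0.39 (limma adjusted p = 0.340). Its Vglut2:Ndufs4cKO arrays (13.34 to 13.77) all lay below all controls (13.82 to 14.08), as was the case for 2.03% of all genes. Of 20 synaptic vesicle genes, 14 were tested, with 0 called and a median of -0.14, and their smallest p values were for Cplx2 and Rims1, at -0.57 and -0.59 (limma adjusted p = 0.479 and 0.481). Both were lowest in Vglut2:Ndufs4cKO replicate 3, at 9.32 and 7.42, against 10.09 to 10.31 and 7.76 to 8.54 in the group's other arrays. Of 14 pan-neuronal markers, 12 were tested, with 0 called and a median of -0.02.

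Against these, 4 of 8 tested markers of microglia and macrophages (of 11 listed) were called higher in Vglut2:Ndufs4cKO arrays. Calls were at a limma adjusted p under 0.05, which 0.777% of all genes reached in that direction. The groups did not overlap for 6 of the 8, all higher, against 4.29% of all genes. All 8 markers were above 0, from 0.16 for P2ry12 to 1.70 for Trem2, with a median log2 fold change of 1.23. Their summed signal was 7547 to 8640 in controls and 13228 to 29568 in Vglut2:Ndufs4cKO arrays, lowest in replicate 4 and highest in replicate 3. Of 9 astrocyte markers, all were tested, with 0 called and a median of -0.0028, around which they went both ways. Gfap and Aldh1l1 were at 0.85 and 0.49, and Fgfr3 at -1.09 (limma adjusted p = 0.297, 0.376 and 0.495). The log2 signal of Fgfr3 ran from 7.74 in Vglut2:Ndufs4cKO replicate 3 to 10.50 in replicate 4, against 9.9 to 10.3 in controls. The part of these differences in cell makeup in the levels of the glutamatergic genes was not tested.

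**Figure D4:**
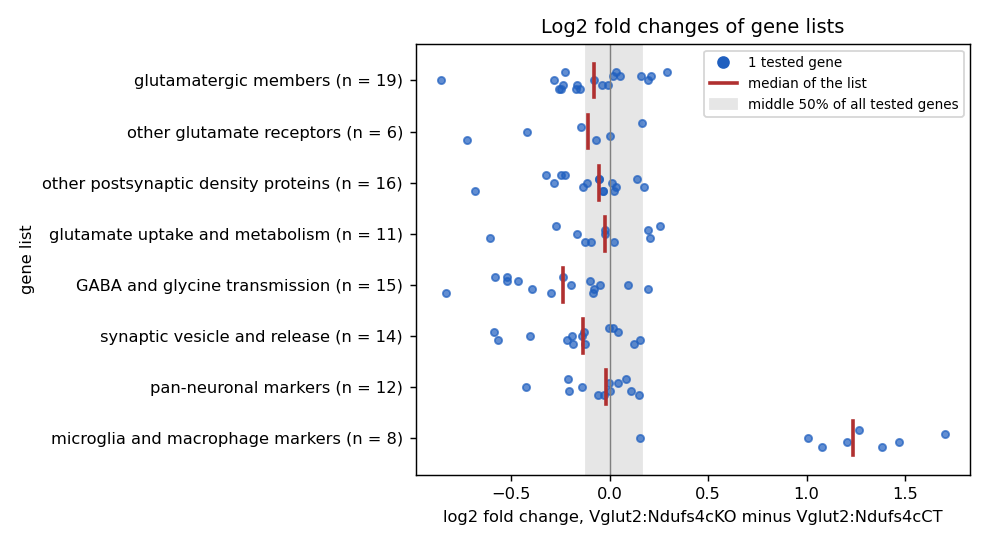
Log2 fold change, Vglut2:Ndufs4cKO minus Vglut2:Ndufs4cCT (horizontal axis), of each tested gene (points) in 8 gene lists (rows), with a red bar at each list's median and a grey band over the middle 50% of all tested genes. The glutamatergic genes have a median of -0.08 and the microglia and macrophage markers one of 1.23.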

How the data were processed

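Total RNA of whole brainstem from 8 mice was hybridised to Illumina MouseRef-8 v2 beadchips. The authors summarised the beads in GenomeStudio (version not given in the sources used here) and deposited, for each of 25697 probes and each array, the mean bead signal intensity without normalization, its standard error, the bead counts and a detection p-value against negative control beads. They also deposited background-subtracted, average-normalized intensity values, used here as an alternative. From the raw intensities, normexp background correction with detection p-values (limma 3.58.1, R 4.3.3) was followed by scaling of each array by 1 factor (0.876 to 1.09) to a common mean and log2 after an offset of 16. Bead counts were not used in the tests.

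Testing was limited to the 15225 probes detected (p under 0.05) on 3 or more of the 8 arrays. The groups were compared with lmFit and eBayes, p-values were Benjamini-Hochberg adjusted over all tested probes, and a gene took the value of its brightest tested probe. Intervals are 95% intervals from limma. Probe symbols came from the platform annotation: 23978 probes had 1 symbol, 1719 had none, and 0 symbols needed updating. Levels were not compared between probes.

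The genes of the list, the comparison lists and the tests were chosen with earlier results of these data known. Values in every array are given for the 3 vesicular transporters, for genes past a threshold or with groups that did not overlap, and for genes whose probes differed in direction; of each other list, up to 4 genes with the smallest p could be named. The replicates are separate mice according to the methods of the study, and the precision is limited by their number. Alternatives were no background correction, quantile normalization, offsets of 1 and 50, the deposited normalized values, no and a stricter detection filter, trended and robust variance, array weights, a replicate block, the mean of a gene's probes, leaving out each array and, added after seeing the data, the probe index as a covariate. The limma step was tested on simulated data.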

Additional observations from a re-analysis of the deposited data

Results flagged for a closer look

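Of the 56 groups of 4 arrays formed by the 28 tested probes, 1 held an array far from the others, where chance flags about 1 in 20. In the Vglut2:Ndufs4cKO group, Slc17a6 had a log2 signal of 14.91 in replicate 4, against 14.71 to 14.73 in the other 3 arrays. The same array had the highest cerebellar marker sums, and whether the values are linked was not tested.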

How the results depend on the processing

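Over 20 alternatives, 0 genes of the list were called, and the lowest adjusted p of any of them was 0.0842 (limma), for Grik5 without Vglut2:Ndufs4cKO replicate 4. Array weights gave 1 gene, Gria1, higher at an unadjusted p under 0.05, with an adjusted p of 0.239 in limma. The share of all probes under 0.05 in that setting was not counted, so this count says nothing particular about Gria1. Leaving out 1 array gave 0 to 2 genes higher at an unadjusted p under 0.05, 0 to 2 higher without overlap and 0 to 1 lower without overlap. The 2 were Gria1 and Grik5 without Vglut2:Ndufs4cKO replicate 4, where 20.4% of all probes had such a p and 19.6% did not overlap, and the 1 was Slc17a6, without that array or without control replicate 4 (7.05% of all probes not overlapping). The median of the list stayed between -0.17 and -0.03. For 8 genes the sign was kept under every alternative that gave a value, and for 11 it turned under at least 1. It turned for Grik4 without background correction (-0.0029), for Homer1 under quantile normalization (-0.0171) and for Gria2 with the mean of its probes (-0.0233). With the probe index as a covariate it turned for Slc17a7 (0.0116), Gria2 (-0.0269), Gria4 (0.18), Grik4 (-0.08), Grik5 (-0.0633), Grm7 (0.0682), Grm8 (0.0628), Cacng2 (-0.0636), Cacng3 (0.10) and Neto1 (0.18). Leaving out 1 array gave ranges that crossed 0 for Slc17a7 (-0.20 to 0.16), Gria2 (-0.0644 to 0.14), Grik4 (-0.0224 to 0.18), Grm8 (-0.17 to 0.043), Neto1 (-0.17 to 0.10) and Homer1 (-0.15 to 0.16). The cause was not tested. With the replicate block 0 genes of the list were called and the smallest adjusted p was 0.766, for Dlg4. The replicate numbers gave no sign of pairing. The deviations of same-numbered arrays correlated at -0.191, -0.261, -0.238 and -0.2, and no array correlated best with its own number. Whether the numbers stand for litters or processing pairs was not tested. Genes not detected, such as Grin2a and Grm3, have no measured level here.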
